A study of Mus musculus with 8 samples.

Results

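The elongases that lengthen saturated and monounsaturated fatty acids and the enzymes that complete the elongation cycle were compared between *Agpat3* WT and KO livers. The 9 genes were *Elovl1*, *Elovl3*, *Elovl6*, *Elovl7*, *Hsd17b12*, *Hacd1*, *Hacd2*, *Hacd3* and *Tecr*. They were chosen by name, by a rule that used no measured value but was set with earlier results of these data known, out of 22911 genes for which the array had a probe that could be named. Livers came from 10-week-old male mice of the C57BL/6 background, 4 *Agpat3* WT and 4 *Agpat3* KO, and each liver was hybridized to a one-color Agilent array. The KO animals carried the deletion in all tissues rather than in hepatocytes alone, and no diet or drug is named for either genotype. AGPAT3 is an acyltransferase that places docosahexaenoic acid (DHA) into phospholipids, and the comparison asks how the liver transcriptome differs when that enzyme is missing. The 8 arrays shared 1 slide and 1 scan. WT samples filled row 1 and KO samples row 2, and the effects of row and genotype cannot be told apart. Nothing in the labels pairs a WT with a KO mouse, and the p-values measure the spread between these 8 livers.

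Fatty acids made in the cytosol are lengthened on the endoplasmic reticulum, where each turn of a cycle adds a pair of carbons from malonyl-CoA. An ELOVL enzyme performs the condensation and decides which acyl-CoA is taken, and the reductions and the dehydration that follow are shared by all chains. HSD17B12 reduces the ketoacyl-CoA, a HACD enzyme removes water from the hydroxyacyl-CoA, and TECR reduces the enoyl-CoA. In liver the best known member is ELOVL6, which turns palmitate, the product of fatty acid synthase, into stearate and is a classical target of the transcription factor SREBP1. The condensing enzymes for polyunsaturated fatty acids (PUFAs), ELOVL2 and ELOVL5, use the same later steps.

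Values are log2 processed signals after the 75th percentile of each array was subtracted on that scale, and a gene was read from its brightest probe. A probe was tested when WT or KO had it well above background on 4 of 4 arrays, and it was called changed at a fold change over 1.5 and a limma adjusted p (Benjamini-Hochberg over 29067 tested probes) under 0.2. Signals of different probes cannot be set against each other, so no order of abundance among the genes is given. *Agpat3* itself was 5.65, 5.66, 5.80 and 5.88 in the WT livers and -0.48, 0.02, -0.58 and -0.47 in the KO livers, a log2 fold change of -6.12. The labels and the targeted gene matched in all 8 livers. Of the hepatocyte markers, 8 of 8 were tested and 0 were called, where 1.01% of all tested genes were called higher and 0.754% lower. *Alb* (albumin) had the highest signal among them, which is not an order of abundance.

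All 9 genes and all 12 of their probes were tested. None of the 9 was called higher, against 1.01% of the 14065 genes tested, and none was called lower, against 0.754%. At an unadjusted p under 0.05, 2 of the 9 genes differed in the limma fit, *Elovl6* (log2 fold change 0.86) and *Elovl3* (-0.98), beside 14.0% of all tested genes. Their changes ran in opposite directions. The WT and KO values overlapped in all 9 genes, beside 9.73% of all tested genes whose values did not overlap. A set of 9 genes without a call or a gap between the groups does not stand apart from these shares. The median log2 fold change of the 9 genes was -0.0033, beside -0.03 over all tested genes. At a fold change over 1.5 and an unadjusted p under 0.2, *Elovl6* was higher, in a set that held 1.92% of all tested genes, and *Elovl3* was lower, in a set that held 1.61%.

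**Figure D1:**
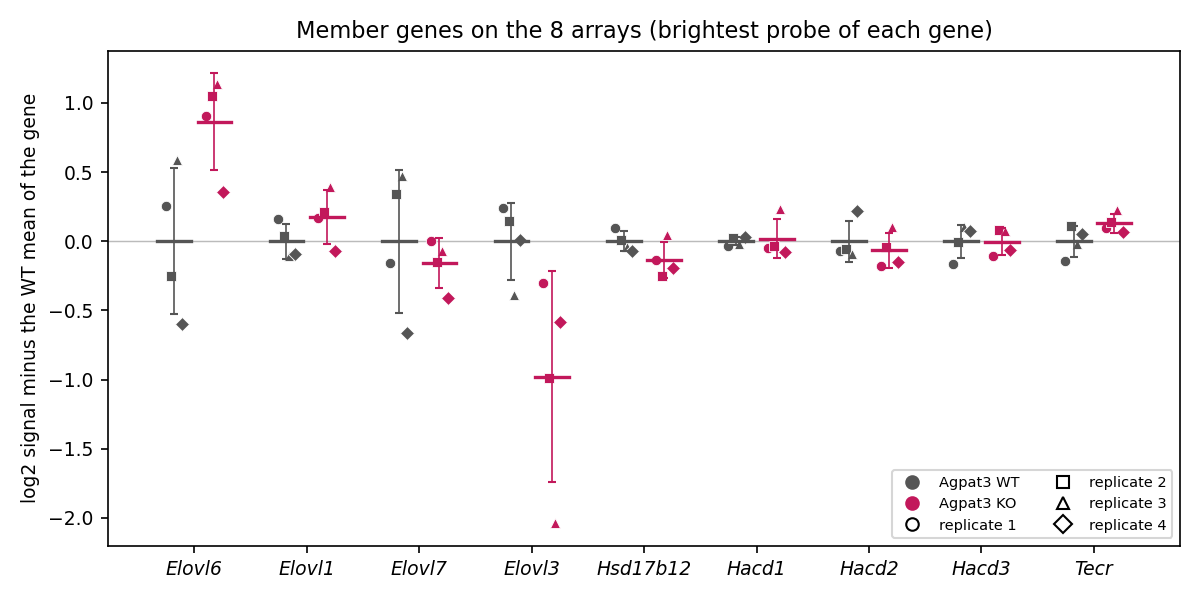
Log2 signal of each gene on each of the 8 arrays, as the difference from that gene's WT mean, with WT in gray and KO in magenta and a marker shape for each replicate number; horizontal lines are means and bars are SD (n = 4). *Elovl6* lies higher and *Elovl3* lower in most KO livers, the WT values of *Elovl7* spread nearly as widely as those of *Elovl6*, and the means of the 7 other genes differ by less than 0.2.

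*Elovl6* was 4.05, 3.54, 4.38 and 3.19 in the WT livers and 4.70, 4.84, 4.93 and 4.15 in the KO livers. In 3 of 4 KO livers it was above the highest WT liver, and KO replicate 4, at 4.15, lay between WT replicates 1 and 3. All 4 KO livers were above the WT mean of 3.79 ± 0.53 (SD, n = 4), and the KO mean was 4.65 ± 0.35 (SD, n = 4). The log2 fold change was 0.86 (SE 0.27, limma adjusted p = 0.237), which is 1.82-fold with a 95% interval from 1.18 to 2.81. An exact two-sided permutation test over the 70 assignments of the mice gave p = 0.0571, where the smallest p possible is 0.0286. The spread among WT livers was wide for this gene, since 95.7% of all tested probes had a lower SD in WT. The call turned on the processing. The limma adjusted p was 0.174 with normexp background correction and 0.113 with the replicate number as a block, and both called the gene. It was between 0.206 and 0.419 when 1 array was left out, which did not call it.

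*Elovl3* was 6.24, 6.14, 5.60 and 6.00 in the WT livers and 5.70, 5.005, 3.96 and 5.41 in the KO livers. The enzyme makes very long saturated and monounsaturated chains, and in mouse liver its mRNA is known to be higher in males and to follow a daily rhythm. In 3 of 4 KO livers it was below the lowest WT liver, and KO replicate 1, at 5.70, lay just above WT replicate 3. The means were 6.00 ± 0.28 in WT and 5.02 ± 0.76 in KO (SD, n = 4 each), and the KO spread was larger than that of 98.3% of all tested probes. The log2 fold change was -0.98 (SE 0.35, limma adjusted p = 0.280), or 0.508 of the WT signal with a 95% interval from 0.292 to 0.883, and the exact two-sided permutation p was 0.0571. The size depended on 1 liver. Without KO replicate 3 the log2 fold change was -0.62 (limma adjusted p = 0.283). With the replicate number as a block in the fit, *Elovl3* was called lower (limma adjusted p = 0.153).

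*Elovl1* and *Elovl7* were not called. *Elovl1*, whose product makes the very long saturated chains used in sphingolipids, was 6.10, 5.97, 5.83 and 5.85 in WT and 6.11, 6.15, 6.33 and 5.87 in KO. Its log2 fold change was 0.17 with a 95% interval from -0.08 to 0.43 (limma adjusted p = 0.556), and its dimmer probe gave 0.26 (limma adjusted p = 0.474). *Elovl7*, another elongase of long saturated chains, had a dim probe that was well above background on 3 of 4 WT and 4 of 4 KO arrays. It was -3.61, -3.11, -2.98 and -4.11 in WT and -3.45, -3.60, -3.52 and -3.86 in KO. The groups overlapped widely, with a log2 fold change of -0.16 and a 95% interval from -0.70 to 0.39 (limma adjusted p = 0.828), so that for this gene a change of 1.5-fold downward lies inside the interval.

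The 5 genes of the shared steps lay near 0, with log2 fold changes between -0.13 and 0.13, and 0 of 5 had an unadjusted limma p under 0.05. *Hsd17b12*, the ketoacyl-CoA reductase, was 4.14, 4.06, 4.01 and 3.98 in WT and 3.91, 3.79, 4.09 and 3.85 in KO. In 3 of 4 KO livers it was below every WT liver and in KO replicate 3 it was not, with a log2 fold change of -0.13 and a 95% interval from -0.33 to 0.06 (limma adjusted p = 0.543). *Tecr*, the enoyl-CoA reductase, was 4.57, 4.83, 4.69 and 4.77 in WT and 4.81, 4.85, 4.94 and 4.78 in KO. All 4 KO livers were above the WT mean, by 0.13 on average, with a 95% interval from -0.05 to 0.31 (limma adjusted p = 0.527).

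The dehydratases lay closest to 0. *Hacd1*, which is best known from skeletal and heart muscle, was 3.74, 3.79, 3.75 and 3.80 in WT and 3.72, 3.73, 4.00 and 3.69 in KO. The KO value that stood out was that of replicate 3, the other 3 lay below every WT value, and the log2 fold change was 0.02 with a 95% interval from -0.17 to 0.21 (limma adjusted p = 0.945). *Hacd2*, which is widely expressed, was 4.31, 4.33, 4.29 and 4.60 in WT and 4.20, 4.34, 4.49 and 4.23 in KO, with a log2 fold change of -0.07 and a 95% interval from -0.29 to 0.16 (limma adjusted p = 0.822). *Hacd3*, also widely expressed, was 6.98, 7.14, 7.24 and 7.22 in WT and 7.04, 7.22, 7.22 and 7.08 in KO. Its log2 fold change was -0.0033 with a 95% interval from -0.20 to 0.19 (limma adjusted p = 0.992). The second probe of *Hacd1* gave -0.01 and that of *Hacd3* gave 0.08, neither of them called. For each of the 5 genes the 95% interval lay inside a 1.5-fold change in either direction.

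**Figure D2:**
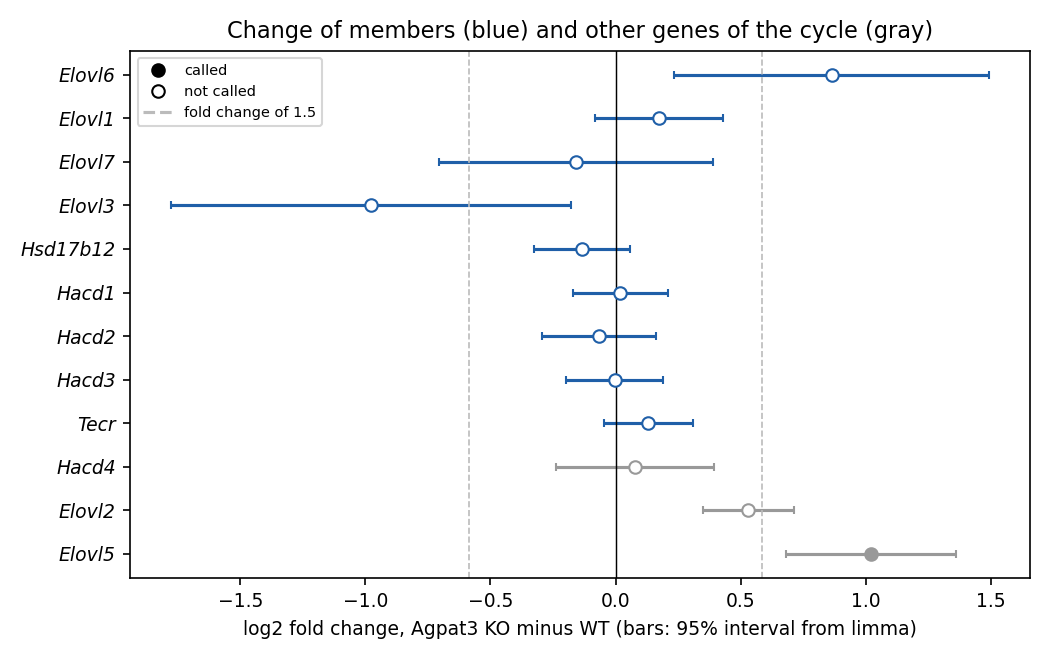
Log2 fold change of KO against WT for the 9 genes (blue) and the 3 other tested genes of the cycle (gray), with 95% intervals from limma; filled points were called, and dashed lines mark a 1.5-fold change. *Elovl6* and *Elovl3* have the widest intervals, the genes of the shared steps lie between -0.13 and 0.13, and *Elovl5* is the called gene.

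In the PUFA branch the WT and KO values of both tested elongases did not overlap. *Elovl5*, which lengthens shorter PUFAs, was 5.05, 4.97, 4.94 and 4.59 in WT and 5.83, 5.62, 6.22 and 5.96 in KO. The gene was called, with a log2 fold change of 1.02 (SE 0.15, limma adjusted p = 0.0355). *Elovl2*, which acts later on the way to DHA, was 5.59, 5.51, 5.73 and 5.50 in WT and 6.10, 6.14, 6.21 and 6.00 in KO. Its log2 fold change of 0.53 (SE 0.08, limma adjusted p = 0.0409) fell short of the 1.5-fold limit. *Hacd4*, a further dehydratase, was not called, and its probes differed in sign (0.08 and -0.34, limma adjusted p = 0.856 and 0.312). *Elovl4* and *Tecrl* were not well above background on any array.

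Whether *Elovl6* changed by a different amount from the other genes was tested directly, from the difference of log2 signals on each array, in 10 pairs, and a pair was held to an adjusted p under 0.05. None of the 10 passed. The change of *Elovl6* exceeded that of *Elovl3* by 1.84, that of *Elovl7* by 1.02, that of *Hsd17b12* by 1.00, that of *Hacd2* by 0.93, that of *Hacd1* by 0.85 and that of *Elovl1* by 0.69. For these 6 pairs the exact permutation p was 0.0286 for *Elovl7*, where the per-array differences of WT and KO did not overlap, and 0.0571 for the other pairs, and the p adjusted over the 10 pairs was 0.0952. With a smallest exact p of 0.0286, at least 6 of the 10 pairs had to reach it for any to pass. The 95% intervals of these 6 differences lay above 0, from 0.44 to 1.605 for *Elovl7*, 0.27 to 1.73 for *Hsd17b12* and 0.34 to 3.34 for *Elovl3*, and from 0.0085 to 1.37 for *Elovl1*, 0.08 to 1.61 for *Hacd1* and 0.06 to 1.80 for *Hacd2*. Without WT replicate 3 the adjusted exact p of these 6 pairs was 0.0476, and without any other single array it was between 0.0816 and 0.190. Against *Hacd3* (0.87, interval 0.09 to 1.64) and *Tecr* (0.73, interval -0.09 to 1.56) the adjusted exact permutation p was 0.107. The change of *Elovl6* minus that of *Elovl2* was 0.33 with a 95% interval from -0.29 to 0.95 (adjusted exact p = 0.222), and minus that of *Elovl5* it was -0.16 with an interval from -0.89 to 0.57 (adjusted exact p = 0.629).

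**Figure D3:**
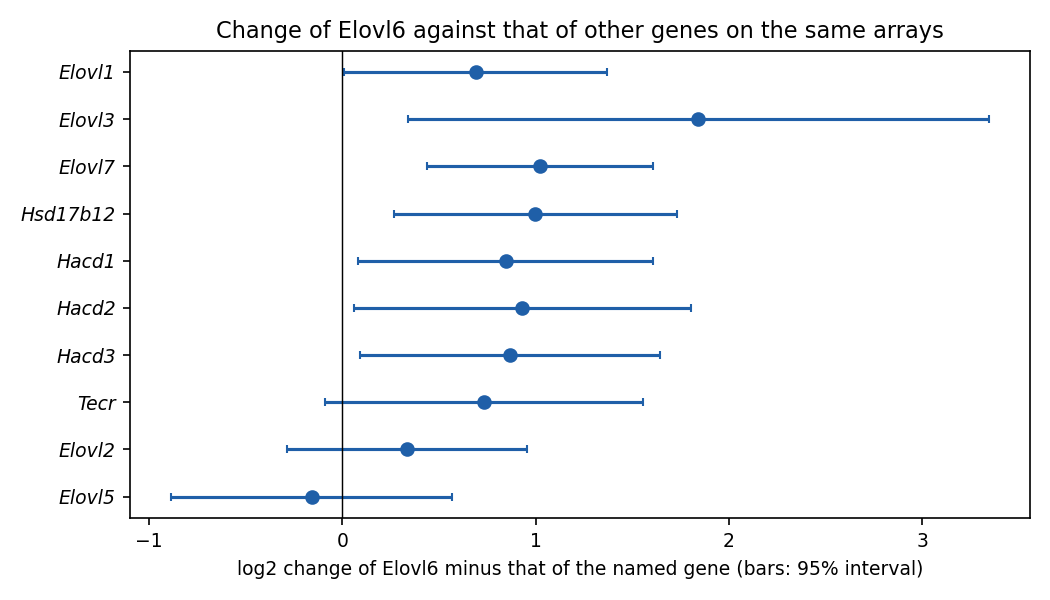
Log2 change of *Elovl6* minus the log2 change of each of 10 other genes on the same arrays, with 95% intervals (n = 4 WT and 4 KO). The difference is above 0.6 for the 8 other genes of the saturated branch and the shared steps, 0.33 for *Elovl2* and -0.16 for *Elovl5*.

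Most genes listed for making the substrate of ELOVL6 were called higher in KO. Of 10 genes listed for synthesis of palmitate, 7 were called higher, against 1.01% of all tested genes, and 0 lower, with a median log2 fold change of 0.93, beside -0.03 over all tested genes. They were *Acly* (1.03), *Acss2* (1.02), *Acacb* (1.31), *Fasn* (1.69), *Me1* (0.85), *Mid1ip1* (0.66) and *Thrsp* (2.00). *Fasn*, the fatty acid synthase, was 6.62, 7.20, 7.01 and 6.95 in WT and 8.49, 8.57, 8.73 and 8.73 in KO, with limma adjusted p = 0.00206. Among the genes not called were *Acaca* (0.57) and *Slc25a1* (0.24), whose groups did not overlap, and *Mcat* (0.14), a mitochondrial malonyl transferase that is also on the list of mitochondrial fatty acid synthesis. Stearoyl-CoA desaturases, which act on the product of ELOVL6, had 3 of 4 genes called higher, *Scd1* (0.97), *Scd2* (0.92) and *Scd3* (1.37), whereas *Scd4* (0.18) was not called. *Scd1* was 8.25, 7.59, 7.54 and 7.23 in WT and 8.61, 8.49, 8.75 and 8.64 in KO. Of the PUFA elongases and desaturases, 6 of 7 were tested and 3 were called higher, *Elovl5*, *Fads1* (0.74) and *Fads2* (0.97). The log2 fold change of *Elovl6* (0.86) lay within the range of these called genes, and its SE of 0.27 was close to that of *Scd3* (0.27) and above that of *Acss2* (0.23), *Elovl5* (0.15) and *Acly* (0.07).

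When each array was left out in turn, *Acly*, *Acacb*, *Fasn*, *Mid1ip1*, *Thrsp*, *Elovl5*, *Fads1* and *Fads2* were called in all 8 fits. *Scd1* was not called without WT replicate 2 or WT replicate 3 (limma adjusted p = 0.203 and 0.228), and *Scd2* and *Scd3* were not called without WT replicate 3 (limma adjusted p = 0.208 and 0.210). *Acss2* was not called without WT replicate 1, WT replicate 3 or KO replicate 1 (limma adjusted p between 0.209 and 0.227). *Me1* was called only without WT replicate 1 or KO replicate 4 among these fits, and its limma adjusted p was between 0.217 and 0.326 in the others.

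**Figure D4:**
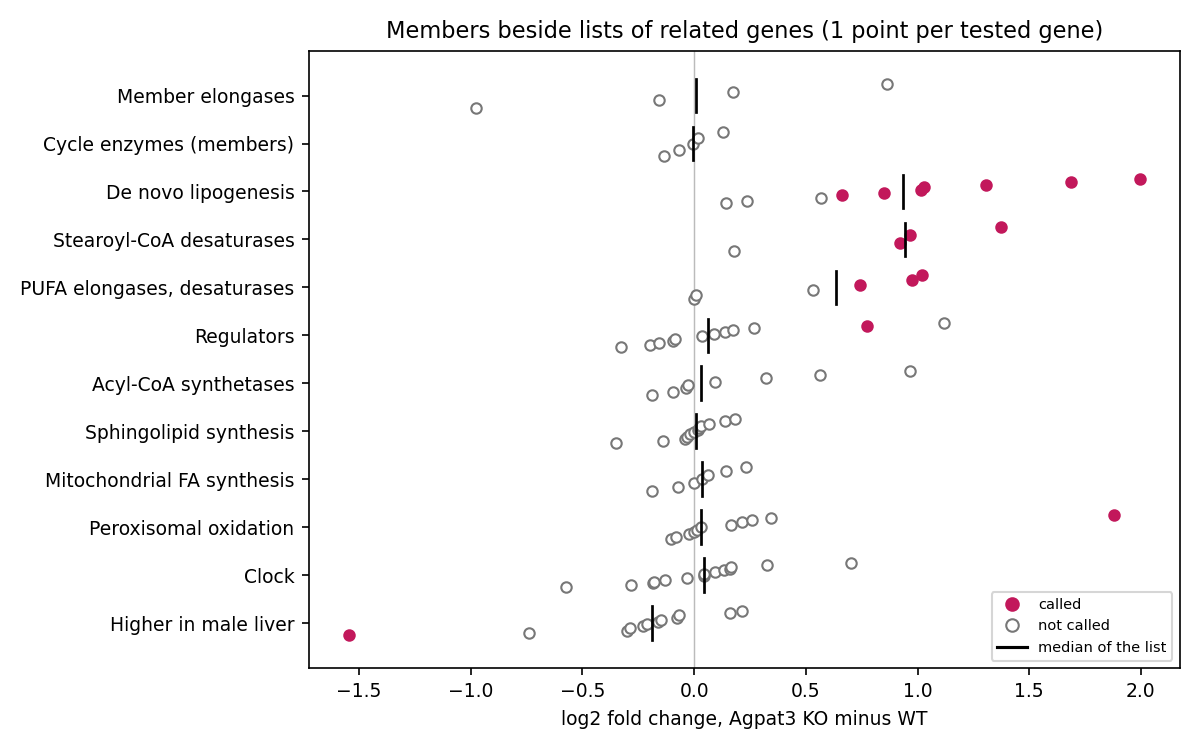
Log2 fold change of KO against WT for each tested gene of the elongation genes and of lists of related genes, 1 point per gene, with called genes filled in magenta and the median of each list as a black line. Called genes gather in the lists for palmitate synthesis, stearoyl-CoA desaturases and PUFA elongases and desaturases, whose medians are 0.93, 0.94 and 0.64.

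Of 12 regulators known for *Elovl6* and lipogenesis, 1 was called higher and 0 lower, beside 1.01% and 0.754% of all tested genes. *Srebf1*, which encodes SREBP1, was 6.08, 6.72, 6.63 and 6.14 in WT and 6.89, 6.87, 7.42 and 7.47 in KO, with no overlap and a log2 fold change of 0.77 (SE 0.20, limma adjusted p = 0.168). That call was lost without any 1 of the 8 arrays (limma adjusted p between 0.205 and 0.284). *Insig1*, a brake on SREBP processing, had a log2 fold change of 1.12 with groups that did not overlap and was not called (limma adjusted p = 0.207). Groups did not overlap in 3 of the 12 genes, beside 9.73% of all tested genes. *Rxra* was among them, with a log2 fold change of -0.16 (limma adjusted p = 0.356). *Hnf4a* had -0.33 with groups that overlapped (limma adjusted p = 0.276), and neither gene was called. *Mlxipl*, which encodes the glucose-responsive factor ChREBP, had 0.14 (limma adjusted p = 0.547), and *Nr1h3*, which encodes the oxysterol receptor LXR alpha, had 0.04 (limma adjusted p = 0.867).

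Genes that take up or consume elongated acyl-CoA were read against the 1.01% of all tested genes called higher and the 0.754% called lower. Lists of this size with 0 or 1 call do not stand apart from those shares. In sphingolipid synthesis 12 of 15 genes were tested and 0 were called, with a median log2 fold change of 0.0085, and *Cers2*, the ceramide synthase for very long chains, had 0.18 (limma adjusted p = 0.271). Of the acyl-CoA synthetases 8 of 9 were tested and 0 were called, and 3 had an unadjusted limma p under 0.05, beside 14.0% of all tested genes, with *Acsl5* at 0.56 (limma adjusted p = 0.0492, short of the fold limit) and *Acsl3* at 0.97 (limma adjusted p = 0.231). Mitochondrial fatty acid synthesis, a separate pathway that ends in lipoate, had 0 of 7 genes called and a median of 0.04. In peroxisomal oxidation of very long chains 1 of 11 genes was called. *Abcd2*, a peroxisomal transporter of very long chain acyl-CoA, had a log2 fold change of 1.88 (SE 0.40, limma adjusted p = 0.106), and was not called without WT replicate 2 or WT replicate 3 (limma adjusted p = 0.207 and 0.239). Its probe was dim, at -4.98, -3.91, -3.96 and -3.20 in WT and -2.57, -2.63, -1.42 and -1.92 in KO. The size of its fold change is therefore limited by signal over background.

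*Elovl3* was set beside the clock genes and the sex-biased genes of mouse liver, because its mRNA follows both. None of 14 tested clock genes was called, with a median log2 fold change of 0.04, and 0 of them had an unadjusted limma p under 0.05, beside 14.0% of all tested genes. These counts compare genotype means, and differences in daily phase between single livers were not tested. Of 12 genes known to be higher in male liver, 1 was called lower and 0 higher, beside 0.754% and 1.01% of all tested genes, with a median of -0.19. The called gene was *Cyp7b1*, an oxysterol hydroxylase, which was 7.16, 6.74, 6.93 and 7.33 in WT and 5.82, 6.09, 4.04 and 6.03 in KO, with a log2 fold change of -1.55 (SE 0.43, limma adjusted p = 0.188). Its groups did not overlap. Without KO replicate 3 its log2 fold change was -1.06 (limma adjusted p = 0.0537), and without any other single array it was not called (limma adjusted p between 0.218 and 0.347). KO replicate 3 had the lowest KO value in 12 of these 12 genes, as it did for *Elovl3*, whereas it had the lowest KO value in 20.8% of all tested genes. *Cyp2b9*, a gene higher in female liver, was highest in the same liver. It was -3.47, -1.01, -0.36 and -1.10 in WT and 0.02, 0.81, 4.21 and 0.72 in KO, with a log2 fold change of 2.92 (limma adjusted p = 0.263), and of 2.00 without KO replicate 3 (limma adjusted p = 0.309). Of the 11 genes listed as higher in female liver 3 were tested and 0 were called, while 6 stayed at background on every array. The other tested genes were *Cyp3a41a* and *Cyp2a4*, with log2 fold changes of -0.0078 and -0.08, and their WT and KO values overlapped. Among the KO livers *Cyp3a41a* was highest in replicate 4. *Cyp2a4* was 6.90, 7.17, 7.87 and 7.84 in KO, highest in replicate 3 and nearly as high in replicate 4. The part of this liver's pattern in the result for *Elovl3* was not tested beyond leaving it out.

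The same liver stood at the other end for most of the remaining genes. KO replicate 3 had the highest KO value in 6 of the 9 elongation genes (*Elovl1*, *Elovl6*, *Hsd17b12*, *Hacd1*, *Hacd2* and *Tecr*), and in 37.0% of all tested genes. KO replicate 4 had the lowest KO value in 5 (*Elovl1*, *Elovl6*, *Elovl7*, *Hacd1* and *Tecr*), and in 21.6% of all tested genes. Among the WT livers, replicates 1, 3 and 4 each had the lowest value in 3 of the 9 genes, and in 32.3%, 19.8% and 26.4% of all tested genes. For *Elovl6*, *Elovl7* and *Hsd17b12* the lowest was replicate 4.

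The profiles most like that of *Elovl6* over the 8 arrays, by the root mean square difference after each profile was centred on its own mean, were those of *2810408I11Rik*, *Col20a1* and *Slc39a10* (0.24 each, on the log2 scale), *Pak1* (0.26) and *Spata33* (0.27). For *Elovl3* they were *Vmn2r29* (0.17), *Tnf* (0.28), *Psd* (0.29), *Sohlh2* (0.31) and *C6* (0.31). *C6*, a complement component, is also on the list of genes higher in male liver, and had a value of 2.03 in KO replicate 3, while the other KO livers ranged from 3.12 to 3.91. Some of these probes were dim. Their lowest values were -2.60 for *Col20a1*, -3.29 for *Slc39a10*, -3.99 for *Pak1*, -4.62 for *Spata33* and -3.95 for *Vmn2r29*. Such values are limited by signal over background. The measure is a description over 8 arrays, and it favors genes of similar range.

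Bulk liver RNA cannot tell fewer cells of a type from less RNA per cell. Markers of other cells were therefore read on the same arrays. For Kupffer cells and macrophages 7 of 7 markers were tested and 1 was called, beside 0.754% of all tested genes called lower and 1.01% higher, shares that stand beside the counts for the other cell types too. It was *Marco*, a scavenger receptor, which was lower in KO (log2 fold change -1.22, SE 0.25, limma adjusted p = 0.0983) and was not called without WT replicate 3 or KO replicate 2 (limma adjusted p = 0.210 and 0.213). The summed signal of the 7 markers, in multiples of the 75th percentile, was 62.0, 78.9, 83.7 and 110.8 in WT and 51.3, 81.7, 85.3 and 79.8 in KO, and overlapped. *Cd5l* had the highest signal among them, again without an order of abundance. None of the 7 stellate, 6 endothelial, 3 tested cholangiocyte or 5 tested lymphocyte markers was called. Adipocytes are known for high *Elovl3* and *Elovl6*, and skeletal muscle for high *Hacd1*. Of 8 adipocyte markers, 5 were not well above background on any array (*Adipoq*, *Plin1*, *Retn*, *Ucp1* and *Cidea*), and the 3 tested were not called (*Fabp4* with a log2 fold change of -0.0042, *Cidec* with 0.17 and *Lep* with -0.10). Of 7 muscle markers, *Ckm* and *Myh1* were not well above background on any array, *Acta1*, *Myh4* and *Myod1* were so on 1 array, and the 2 tested were not called (*Mylpf* with 0.0020 and *Tnnt3* with 0.01).

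Promoter sequences were read for the genes of the cycle. The stretches of *Elovl6* and *Elovl5* are shown because these are the member with the highest log2 fold change and the called PUFA elongase. Each is the 170 bases upstream of the annotated start site on the plus strand, from RefSeq on GRCm38.p6, at chr3:129532216-129532385 for *Elovl6* and chr9:77917195-77917364 for *Elovl5*, with matches to the searched motifs in capitals.
Elovl6: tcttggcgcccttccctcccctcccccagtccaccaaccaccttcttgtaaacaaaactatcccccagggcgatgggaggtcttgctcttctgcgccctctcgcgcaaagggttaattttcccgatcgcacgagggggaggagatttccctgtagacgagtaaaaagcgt
Elovl5: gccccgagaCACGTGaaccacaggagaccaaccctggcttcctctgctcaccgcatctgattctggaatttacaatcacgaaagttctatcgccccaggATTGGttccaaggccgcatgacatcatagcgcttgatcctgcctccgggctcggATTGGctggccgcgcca
In *Elovl5* the capitals mark CACGTG, the E-box, at -161 and the reverse complement of CCAAT, the box of NF-Y, at -71 and -17. Motifs were searched on both strands from 250 bases before to 50 after the start site. In *Elovl1* the matches to CCAAT at -35 and to GGGCGG at -39 share bases, and no other matches to different motifs did so in the windows of these genes. The *Elovl6* window held none of them. Promoters were found for 8 of the 9 genes, in 9 windows, since *Elovl1* has a pair of start sites and *Elovl3* had no entry. CACGTG was in 1 of the 9 windows (*Hacd3*) and in 7.15% of all 32851 promoters of this length. CCAAT was in 4 (*Elovl1*, *Hacd3*, *Hsd17b12* and *Tecr*) and in 37.4% of all promoters. GGGCGG, the Sp1 box, was in 8 (all but that of *Elovl6*) and in 35.7%, and TCACNCCAC, a sterol regulatory element, was in 0 and in 1.24%. A match describes letters in this window and is no evidence of binding, and the lack of one says nothing about the factor.

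**Figure D5:**
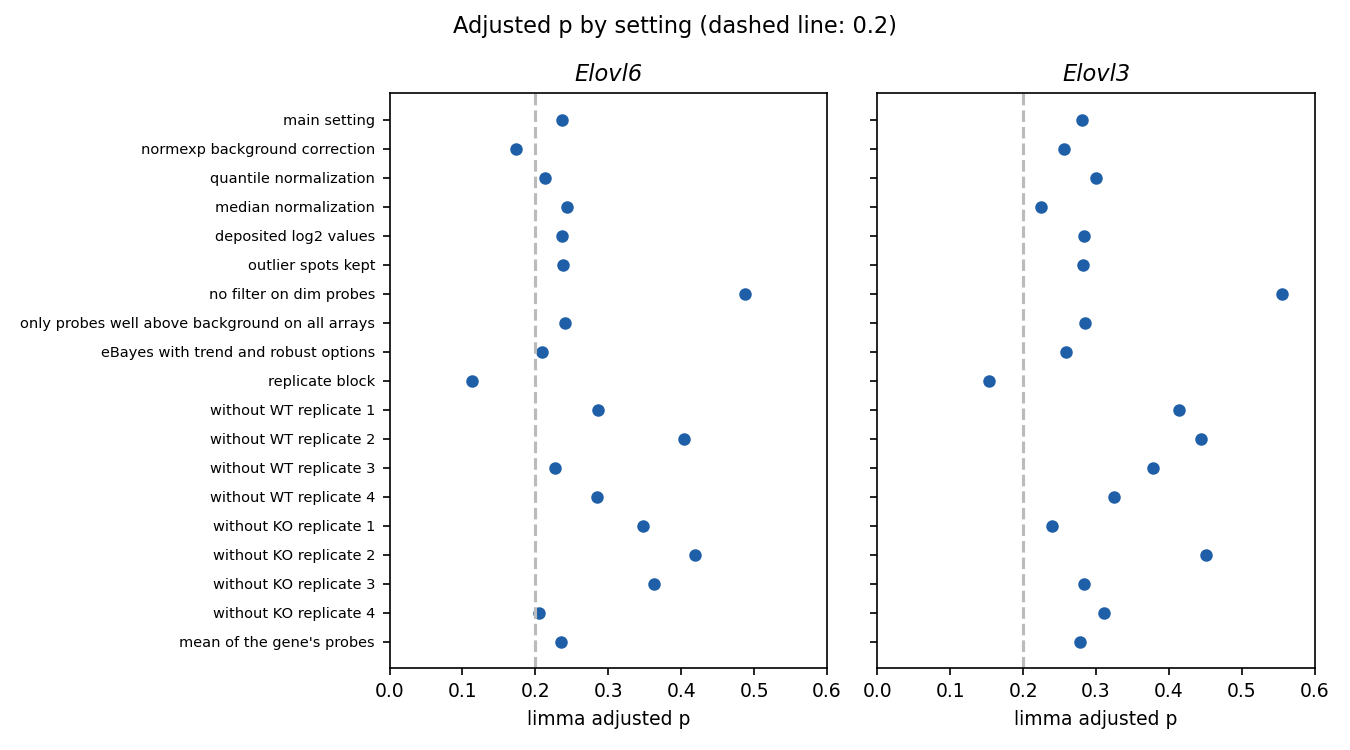
Limma adjusted p of *Elovl6* (left) and *Elovl3* (right) under each setting of the analysis, with the threshold of 0.2 as a dashed line. *Elovl6* passes with normexp background correction (0.174) and with the replicate number as a block (0.113), and *Elovl3* with the block (0.153).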

How the data were processed

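The authors deposited, for each of 8 livers, the one-color scanner output of Agilent Feature Extraction 10.7.1.1 (version from the file headers), in which the processed signal is a background-corrected linear intensity. They also deposited 1 table of log2 values, which was checked and differs from the values computed here by 1 constant per array, between 0.0029 and 0.0085 in log2. The 75th percentile lay between 261 and 309 and the median local background between 27 and 32, 29885 to 31886 of 56605 probes were well above background on an array, and 0 spots were saturated. The number of arrays limits the precision.

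Control and outlier spots (86 to 150 per array) were left out. Log2 signals minus the 75th percentile were compared between KO and WT, two-sided, in limma 3.58.1 (lmFit, eBayes; R 4.3.3). The 1.5-fold and 0.2 limits follow the legend of the volcano plot in the study, where it is not stated if p was adjusted. Probes were named by transcript accession through RefSeq GRCm38.p6, which matched 32994 probes. The files name another mouse build, so probe coordinates are not given. Genes and lists were chosen with earlier results of these data known. Named genes are the members, the other cycle genes, *Agpat3*, called genes of the lists, *Srebf1*, *Mlxipl*, *Nr1h3*, *Scd1*, *Fasn* and the 5 nearest profiles of *Elovl6* and *Elovl3*. Other list genes, such as *Insig1*, *Cyp2b9*, *Acsl3* and *Acsl5*, were picked after their values were seen. Probes of related genes can share targets, which was not tested. The test was tried on simulated data. Alternatives were normexp (offset 50, on the median spot signal), the deposited log2 values, median and quantile normalization, other filters and thresholds, outlier spots kept, trend and robust eBayes, a replicate block, an unpaired test, the mean of a gene's probes, and each array left out. For list genes the last was added after seeing the data. A planned comparison of protein sequences was not run, as no protein table was used here.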

Additional observations from a re-analysis of the deposited data

Results flagged for a closer look

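In 3 of 36 groups of 4 livers examined, 1 liver stood apart from the other 3 by more than Dixon's 95% limit, which chance gives in about 1 in 20 groups. For *Hacd1*, KO replicate 3 had a log2 signal of 4.00, and the other KO livers ranged from 3.69 to 3.73. For *Hacd2*, WT replicate 4 had a log2 signal of 4.60, and the other WT livers ranged from 4.29 to 4.33. For *Mlxipl*, KO replicate 2 had a log2 signal of 7.22, and the other KO livers ranged from 6.98 to 7.02.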

How the results depend on the processing

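No member was called in any of the 8 fits that left out 1 array. A member was called higher (1 gene, *Elovl6*) with normexp (0.90, limma adjusted p = 0.174), with the replicate number as a block (0.86, limma adjusted p = 0.113) and at an unadjusted p under 0.2, and lower (1 gene, *Elovl3*) with the block (-0.98, limma adjusted p = 0.153) and at an unadjusted p. The numbers were not taken to pair the mice, since no label says so and the deviations of same-numbered WT and KO livers correlated at 0.33, -0.11, 0.10 and 0.32, not all of them positive. Livers 1 and 4 correlated best with their own number and the others did not all do so. Median local background fell with the number, 32, 30, 29 and 27 in WT and 31, 29, 28 and 27 in KO. With the block the SE of *Elovl6* was 0.14, against 0.27 without it, and that of *Hacd2* was 0.11, against 0.099. Whether same-numbered livers share a source of variation was not tested. The block gave 327 probes higher and 265 lower, against 273 and 211. Probes higher and lower numbered 180 and 65 with normexp, 122 and 131 without a filter, 165 and 104 by an unpaired test without moderation, 82 and 35 at an adjusted p under 0.05, 557 and 645 without a fold limit, and 534 and 451 at an unadjusted p, and 125 were lower with the stricter filter. With 1 array left out they were 152 to 334 and 105 to 311. *Hacd1* reversed with median normalization (-0.019), a scaling that moved the median of all tested probes by -0.038. *Hacd3* reversed with quantile normalization (0.024) and the mean of its probes (0.041), and *Hacd4* with the mean of its probes (-0.13). Both genes have probes that differ in sign, -0.0033 and 0.08 for *Hacd3* and 0.08 and -0.34 for *Hacd4*, and their mean takes the sign of the larger change. The cause for *Hacd3* with quantile normalization was not tested. With 1 array left out, the log2 fold change was -0.38 to 0.00054 for *Elovl7*, -0.052 to 0.050 for *Hacd1*, -0.12 to 0.0063 for *Hacd2*, -0.059 to 0.031 for *Hacd3*, -0.027 to 0.17 for *Hacd4*, 0.10 to 0.26 for *Elovl1*, 0.08 to 0.17 for *Tecr*, 0.66 to 1.06 for *Elovl6* and -1.20 to -0.62 for *Elovl3*. The change of *Elovl6* minus that of another gene was 0.52 to 0.92 for *Elovl1*, 0.16 to 0.48 for *Elovl2* (lowest without WT replicate 4), 1.40 to 2.17 for *Elovl3*, 0.82 to 1.16 for *Elovl7*, 0.64 to 1.05 for *Hacd1*, 0.66 to 1.16 for *Hacd2*, 0.82 to 1.21 for *Hsd17b12* and -0.32 to 0.029 for *Elovl5*. Dim probes such as that of *Elovl7* are limited by signal over background.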
